A study of Danio rerio with 6 samples.

Results

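The 9 genes described here encode regulators and targets of the transcription factor p53. They are mdm2, mdm4, ccng1, cdkn1a, gadd45aa, sesn1, bbc3, pmaip1 and casp9. They were chosen by gene name from the 31743 genes of the deposited expression table, with earlier results of these data known. All 9 passed the filter on low counts. RNA was sequenced from germ cells sorted from the trunks of juvenile TL-strain zebrafish at 21 days post fertilization, with 3 libraries of each genotype. Around 300 EGFP+ cells were sorted per genotype, and the labels do not say whether that number is per library. Mutant cells carried the EGFP reporter of the foxl2l gene on a foxl2l-/- background (foxl2l:egfp;foxl2l-/-), and wild-type cells carried the same reporter on a foxl2l+/+ background (foxl2l:egfp;foxl2l+/+). Foxl2l is a forkhead transcription factor of germ cells. By its title, the series is about its role in female meiotic entry. Cells of both groups were selected for reporter fluorescence. Whether the foxl2l promoter was active in every sorted cell was not tested. The labels do not say which part of foxl2l is altered, how many animals were pooled, or whether libraries of a genotype came from separate clutches. The p-values therefore weigh each genotype difference only against the spread of these libraries, part of which may be technical.

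The p53 protein is kept low by Mdm2, a ubiquitin ligase that marks it for degradation, and by Mdm4, a related protein that binds p53 and blocks its activation of genes. After DNA damage or other stress p53 accumulates and activates genes for cell cycle arrest, repair and apoptosis, and it also activates mdm2, which closes a feedback loop. In zebrafish, p53-dependent apoptosis of germ cells is known for its part in female-to-male sex reversal, as in fancl mutants.

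Totals ran from 25176401 to 39189535 counts per library, lowest in foxl2l+/+ replicate 3. Libraries correlated at 0.944 to 0.969 (Pearson's r of log2 CPM across genes, where CPM is counts scaled to library size) within foxl2l-/- and at 0.951 to 0.954 within foxl2l+/+. Replicate 3 was the least similar of the foxl2l-/- libraries (0.944 and 0.952 with the other two). Transcripts of the targeted gene, listed as zgc:194189, were present in both genotypes, at 978 ± 189 CPM in foxl2l-/- cells against 627 ± 120 CPM in foxl2l+/+ cells (SD, n = 3 each). They were called higher in foxl2l-/- cells, with a log2 fold change of 0.64 ± 0.20 (SE, edgeR quasi-likelihood, adjusted p = 0.0263). The level of the targeted gene therefore does not check the genotype labels. The germ cell label was checked against 9 markers such as ddx4 and dazl, of which none was at 0 in every library. Their summed level was 8590 to 11876 CPM in foxl2l-/- and 9068 to 10780 CPM in foxl2l+/+ libraries. Of these, 1 rose (nanos3) and 1 fell (dnd1), so 22.2% were called, against 31.6% of all tested genes.

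In foxl2l-/- germ cells the 9 genes split in both directions. Levels of mdm2, bbc3, gadd45aa and ccng1 fell (4 genes), those of mdm4, sesn1 and casp9 rose (3 genes), and those of cdkn1a and pmaip1 did not pass the test (2 genes). Genes were called by the quasi-likelihood test of edgeR at 0.05 after Benjamini-Hochberg adjustment over the 23576 genes tested, on counts scaled by the trimmed mean of M-values (TMM). Of all tested genes 31.6% were called, 15.7% higher and 15.8% lower. The foxl2l-/- and foxl2l+/+ libraries did not overlap in CPM for the same 7 of the 9 genes, an arrangement found for 46.7% of all tested genes. The share of the 9 genes that was called (7 of 9) cannot be read as particular to them, because they were picked with these results in view. Their median log2 fold change was -0.11, against 0.05 over all tested genes. Fold changes are given as log2 ratios, foxl2l-/- over foxl2l+/+. When libraries were scaled by their totals alone, the median of all genes was 0.25. That scaling called 4882 genes higher and 2723 lower, against 3710 and 3733 with TMM, and it called 4 of the 9 genes higher and 3 lower. The median of the 9 genes turned to 0.09 with that scaling and to 0.14 in limma on log2(TPM + 1), where the median of all genes was 0.19. In RNA from sorted pools, fewer cells of a type and less RNA per cell cannot be told apart.

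**Figure D1:**
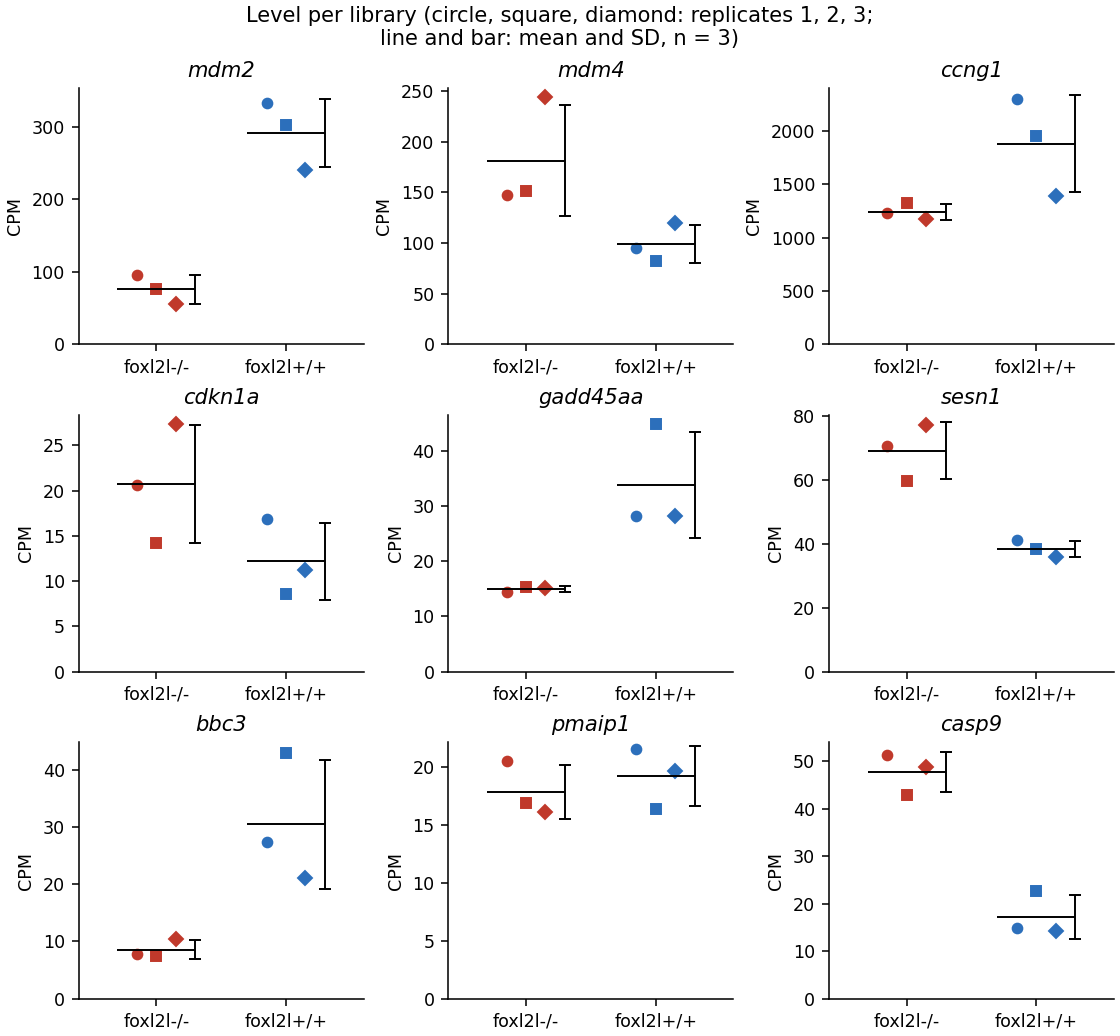
Level of each of the 9 genes in each library, in TMM-scaled CPM on a linear axis from 0, with foxl2l-/- libraries at the left and foxl2l+/+ libraries at the right of each panel. Points are libraries, and the line and bar give the mean and SD (n = 3). The genotypes separate without overlap for 7 genes, as they do for 46.7% of all tested genes, and overlap for cdkn1a and pmaip1.

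**Figure D2:**
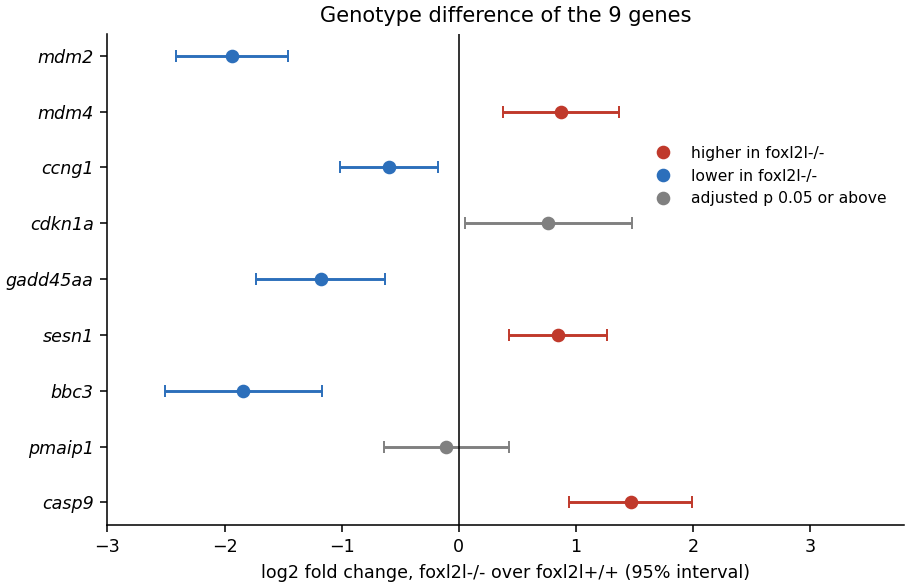
Log2 fold change of foxl2l-/- over foxl2l+/+ for the 9 genes, with 95% intervals from the edgeR fit. Colours mark genes called higher, called lower and not called, and the values run from -1.94 for mdm2 to 1.47 for casp9.

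The p53 antagonists mdm2 and mdm4 moved in opposite directions. The mdm2 gene (ENSDARG00000033443, chromosome 4, 23125689 to 23136195, forward strand, GRCz11), which encodes the ubiquitin ligase and is itself a p53 target, had 95.6, 76.6 and 56.0 CPM in foxl2l-/- replicates 1 to 3, against 332, 302 and 240.2 CPM in foxl2l+/+ replicates 1 to 3. The highest foxl2l-/- library lay far below the lowest foxl2l+/+ library. Its log2 fold change was -1.94 ± 0.22 (SE), which is 0.261 times the foxl2l+/+ level (edgeR quasi-likelihood, adjusted p = 6.08e-05). The mdm4 gene (ENSDARG00000057513, chromosome 11, 22890997 to 22916641, reverse strand) had 148, 151 and 244 CPM in foxl2l-/- libraries, against 95.04, 82.4 and 119.6 CPM in foxl2l+/+ libraries. Every foxl2l-/- library was above every foxl2l+/+ library, and replicate 3 was the highest of each genotype. The log2 fold change of mdm4 was 0.87 ± 0.23 (SE; edgeR quasi-likelihood, adjusted p = 0.0120). Its call ended when foxl2l+/+ replicate 2 was dropped (0.74, edgeR adjusted p = 0.0657; 0.00405 to 0.0657 across all alternatives). Without foxl2l-/- replicate 3, in which mdm4 was highest, its log2 fold change was 0.60, the lowest of all alternatives (edgeR adjusted p = 0.0311).

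The more abundant of the 2 transcripts was mdm4 in foxl2l-/- and mdm2 in foxl2l+/+ libraries. Levels per transcript length were taken from the authors' TPM values, which are scaled by gene length and depth. In foxl2l-/- cells mdm2 had 36.4 ± 6.70 TPM and mdm4 107 ± 40.8 TPM, whereas in foxl2l+/+ cells mdm2 had 118 ± 20.3 TPM and mdm4 48.6 ± 10.8 TPM (SD, n = 3 each). The ratio of mdm2 to mdm4 in TPM was 0.537, 0.42 and 0.19 in foxl2l-/- replicates 1 to 3, against 2.90, 3.04 and 1.67 in foxl2l+/+ replicates 1 to 3. The ratio was below 1 in each foxl2l-/- library and above 1 in each foxl2l+/+ library, and it was lowest in replicate 3 of both genotypes. This ratio was set up with the values of both genes known, so it is a description and carries no test.

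**Figure D3:**
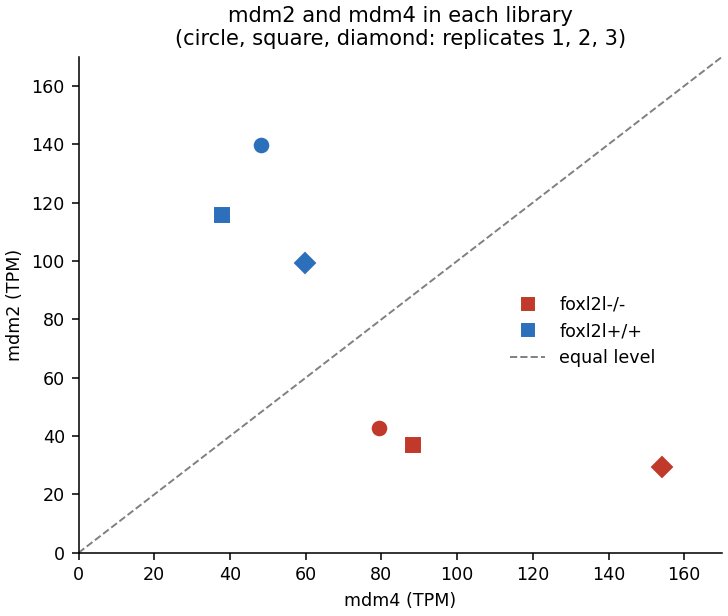
TPM of mdm2 (vertical axis) against TPM of mdm4 (horizontal axis), 1 point per library, with a dashed line at equal levels. The 3 foxl2l-/- libraries lie below the line and the 3 foxl2l+/+ libraries above it.

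Of the targets tied to cell cycle arrest and stress, gadd45aa and ccng1 fell, sesn1 rose and cdkn1a did not pass. Gadd45aa (ENSDARG00000043581, chromosome 2, 10280645 to 10284572, forward strand) belongs to a family of stress-induced growth arrest genes. It had 14.4, 15.4 and 15.1 CPM in foxl2l-/- libraries, against 28.3, 44.99 and 28.3 CPM in foxl2l+/+ libraries. The foxl2l-/- libraries were close together, while foxl2l+/+ replicate 2 stood above the other foxl2l+/+ libraries. Its log2 fold change was -1.18 ± 0.25 (SE; edgeR quasi-likelihood, adjusted p = 0.00413). Sesn1 (ENSDARG00000020693, chromosome 20, 32152355 to 32231157, forward strand) encodes a sestrin, a stress-induced inhibitor of TORC1 signalling. It had 70.8, 59.7 and 77.4 CPM in foxl2l-/- libraries, against 41.1, 38.4 and 36.0 CPM in foxl2l+/+ libraries, with no overlap. Its log2 fold change was 0.85 ± 0.19 (SE; edgeR quasi-likelihood, adjusted p = 0.00546). The span of sesn1 holds armc2 on the opposite strand, at 15.7 CPM in foxl2l-/- cells against 4.81 CPM in foxl2l+/+ cells, and si:ch211-51a19.5, at 1.11 CPM in foxl2l-/- against 0.848 CPM in foxl2l+/+ cells. The libraries did not record strand, so reads of overlapping exons cannot be told apart. The other 8 genes overlapped no gene in the table.

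Ccng1 (ENSDARG00000076667, chromosome 14, 22129096 to 22140213, forward strand), which encodes cyclin G1, was by far the most abundant of the 9. It had 1227, 1323 and 1178 CPM in foxl2l-/- libraries, against 2303, 1947 and 1394 CPM in foxl2l+/+ libraries. The gap between the lowest foxl2l+/+ and the highest foxl2l-/- library was small beside the spread among foxl2l+/+ libraries. On the log2 scale it fell by 0.60 ± 0.19 (SE; edgeR quasi-likelihood, adjusted p = 0.0321). In TPM the genotypes overlapped, at 881 to 1029 in foxl2l-/- and 928 to 1559 in foxl2l+/+ libraries. The call ended with library totals (-0.39, edgeR adjusted p = 0.132), with limma on log2(TPM + 1) (-0.32, adjusted p = 0.203), and when any library other than foxl2l+/+ replicate 3 was left out (edgeR adjusted p = 0.0583 to 0.120).

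Cdkn1a (ENSDARG00000076554, chromosome 22, 603382 to 607812, reverse strand) encodes the cyclin-dependent kinase inhibitor p21, the classical arrest target of p53. It had 20.6, 14.2 and 27.3 CPM in foxl2l-/- libraries, against 16.9, 8.53 and 11.2 CPM in foxl2l+/+ libraries. The genotypes overlapped, since foxl2l-/- replicate 2 lay below foxl2l+/+ replicate 1. The log2 fold change was 0.76 ± 0.33 (SE; 95% interval 0.05 to 1.48; edgeR quasi-likelihood, adjusted p = 0.0960). It was called higher with library totals (0.96, edgeR adjusted p = 0.0439), in limma on log2(TPM + 1) (0.98, adjusted p = 0.0387) and when foxl2l+/+ replicate 1 was dropped (1.06, edgeR adjusted p = 0.0478). Across all alternatives its adjusted p in edgeR, DESeq2 and limma fits was 0.0387 to 0.295. Without foxl2l-/- replicate 3, in which it was highest, the log2 fold change was 0.52.

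Among the apoptotic genes bbc3 fell, casp9 rose and pmaip1 did not pass. Bbc3 (ENSDARG00000069282, chromosome 15, 23745217 to 23761580, reverse strand) encodes Puma, a BH3-only protein that triggers mitochondrial apoptosis. It had 7.77, 7.39 and 10.5 CPM in foxl2l-/- libraries, against 27.5, 43.1 and 21.1 CPM in foxl2l+/+ libraries. All foxl2l-/- libraries were below all foxl2l+/+ libraries, and foxl2l+/+ replicate 2 was the highest, as it was for gadd45aa. The log2 fold change was -1.84 ± 0.31 (SE), which is 0.28 times the foxl2l+/+ level (edgeR quasi-likelihood, adjusted p = 0.000846). These values rest on 311 to 1530 counts per library.

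Pmaip1 (ENSDARG00000089307, chromosome 10, 8656417 to 8657684, forward strand) encodes Noxa, another BH3-only protein. It had 20.5, 16.9 and 16.1 CPM in foxl2l-/- libraries, against 21.5, 16.4 and 19.6 CPM in foxl2l+/+ libraries, with overlapping ranges. Its log2 fold change was -0.11 ± 0.25 (SE; 95% interval -0.64 to 0.43; edgeR quasi-likelihood, adjusted p = 0.781), and its sign turned with library totals (0.09) and on the TPM scale (0.14). A change of the size seen for bbc3 lies outside this interval. Whether the fold changes of the 2 BH3-only genes differ was not tested.

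Casp9 (ENSDARG00000004325, chromosome 23, 24973773 to 24985272, forward strand) encodes the initiator caspase of the mitochondrial pathway, which is activated on the apoptosome. It had 51.3, 43.0 and 48.8 CPM in foxl2l-/- libraries, against 14.9, 22.6 and 14.2 CPM in foxl2l+/+ libraries. The lowest foxl2l-/- library was well above the highest foxl2l+/+ library. The log2 fold change was 1.47 ± 0.24 (SE), which is 2.77 times the foxl2l+/+ level (edgeR quasi-likelihood, adjusted p = 0.000761).

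The order of the 9 genes by TPM also differed between the genotypes. In foxl2l-/- cells it ran from ccng1 (967 ± 77.3 TPM) and mdm4 through casp9 (43.0 ± 4.43), mdm2, cdkn1a (32.4 ± 12.1), pmaip1 (28.5 ± 1.68), sesn1 (26.2 ± 4.75) and gadd45aa (22.5 ± 2.32) to bbc3 (4.27 ± 1.16; SD, n = 3). There the neighbours from casp9 down to gadd45aa overlapped in their library ranges, whereas ccng1, mdm4 and bbc3 each stood apart. In foxl2l+/+ cells it ran from ccng1 (1228 ± 316 TPM) and mdm2 through mdm4, gadd45aa (42.3 ± 9.72), pmaip1 (26.0 ± 4.72), cdkn1a (16.0 ± 6.21), casp9 (12.9 ± 2.78) and bbc3 (12.5 ± 4.0) to sesn1 (12.2 ± 1.14; SD, n = 3). There mdm4 and gadd45aa overlapped, and so did each pair of neighbours from pmaip1 to sesn1, while ccng1 and mdm2 each stood apart. Among all tested genes bbc3 was at the 45.3 percentile of mean TPM in foxl2l-/- and at the 67.6 percentile in foxl2l+/+ cells, and mdm2 was at the 80.9 percentile in foxl2l-/- and the 92.9 percentile in foxl2l+/+ cells. The 9 genes lie on 9 chromosomes.

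The genes whose levels were most like those of mdm2 over the 6 libraries were ssr4, ier3ip1 and kdsr. Their Pearson correlation of log2 CPM with mdm2 was 0.999, 0.999 and 0.998, the highest of 10787 genes with a mean of at least 10 CPM, of which 78 exceeded 0.99. The libraries fall into 2 genotypes, so a high correlation comes in large part from the difference between genotypes. Which genes rank highest also depends on the spread of libraries within each genotype. The correlation is given as a description. Ier3ip1 had 87.7 ± 20.2 CPM in foxl2l-/- cells against 262 ± 22.6 CPM in foxl2l+/+ cells (SD, n = 3 each). The log2 fold change of ssr4 was -1.08 and that of kdsr -0.66. The call of kdsr ended with library totals (edgeR adjusted p = 0.0719), without foxl2l-/- replicate 2 (edgeR adjusted p = 0.0766) and in limma on log2(TPM + 1) (adjusted p = 0.106). Its adjusted p over all edgeR, DESeq2 and limma alternatives was 0.00445 to 0.109.

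Of 24 other regulators of p53 tested, 4 fell, 1 rose and 19 did not pass, so 20.8% were called, against 31.6% of all tested genes. This list and those that follow were chosen with earlier results of these data known, so their called shares cannot be read as particular to them. Their median was -0.16 on the log2 scale (-0.31 without foxl2l-/- replicate 2, -0.30 without foxl2l+/+ replicate 1 and -0.10 without foxl2l-/- replicate 3), and it turned to 0.04 with library totals. Usp7, a deubiquitinase of Mdm2 and p53, fell by 1.66 ± 0.17 on the log2 scale (SE), with 78.3 ± 7.85 CPM in foxl2l-/- cells against 247 ± 26.1 CPM in foxl2l+/+ cells (SD, n = 3 each; edgeR quasi-likelihood adjusted p = 3.56e-05). Prkdc, the catalytic subunit of the DNA-dependent protein kinase, fell by 1.42 ± 0.19. The SUMO ligase gene pias1a fell by 1.39 ± 0.29 and the mitotic kinase gene aurka by 0.72 ± 0.18. The paralogue pias1b, chosen after its values were seen, had a log2 fold change of 0.31 ± 0.32 (SE) and did not pass. The call of aurka ended without foxl2l-/- replicate 2 (edgeR adjusted p = 0.0515, in a range of 0.00254 to 0.0515 across all alternatives). The checkpoint kinase gene chek2, whose product phosphorylates p53 after DNA breaks, rose by 0.88 ± 0.21, with 133 ± 31.7 CPM in foxl2l-/- cells against 72.5 ± 13.8 CPM in foxl2l+/+ cells. The damage kinase genes atm and atr, chosen after their values were seen, had log2 fold changes of -0.06 and -0.52 and did not pass, although atr was called lower in 3 of 16 alternatives (limma-voom, without foxl2l-/- replicate 3 and without foxl2l+/+ replicate 1). With library totals 5 regulators were higher and 4 lower, against 4882 and 2723 of all tested genes. Dropping foxl2l-/- replicate 3 left 2 higher and 7 lower, dropping foxl2l-/- replicate 1 left 3 and 5, and dropping foxl2l+/+ replicate 3 left 2 and 4. The same fits called 3302 and 3753, 3037 and 3248, and 2948 and 2865 of all tested genes. On the TPM scale there were 3 and 4, with DESeq2 3 and 5, and with limma-voom 3 and 8. Over all tested genes, log2(TPM + 1) gave 5326 higher and 2652 lower, DESeq2 4152 and 4223, and limma-voom 4502 and 4719.

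Of 29 other arrest, repair and stress targets tested, 9 rose, 4 fell and 16 did not pass, so 44.8% were called, against 31.6% of all tested genes (15.7% higher and 15.8% lower). That share has the same limit, since these targets were listed with earlier results known. Their median was 0.43 on the log2 scale, but 0.23 without foxl2l+/+ replicate 3, 0.24 without foxl2l-/- replicate 3 and 0.21 with limma-voom. The damage recognition gene ddb2 rose by 1.03 ± 0.17 (SE), with 189 ± 23.7 CPM in foxl2l-/- cells against 92.5 ± 2.32 CPM in foxl2l+/+ cells (SD, n = 3 each; edgeR quasi-likelihood adjusted p = 0.000748). The glutathione peroxidase gene gpx1a rose by 0.95 ± 0.20 and tigarb, a homologue of the metabolic p53 target TIGAR, by 0.77 ± 0.23. The paralogue tigara, chosen after its values were seen, did not pass. It had 17.7 ± 3.65 CPM in foxl2l-/- against 17.7 ± 2.14 CPM in foxl2l+/+ cells (SD, n = 3 each). The sestrins went both ways, since sesn3 rose by 1.15 ± 0.33, like sesn1, while sesn2 fell by 0.74 ± 0.19, to 84.7 ± 15.5 CPM in foxl2l-/- against 141 ± 14.4 CPM in foxl2l+/+ libraries. The call of sesn3 ended without foxl2l-/- replicate 3, foxl2l+/+ replicate 1 or foxl2l+/+ replicate 3 (edgeR adjusted p = 0.0638, 0.0674 and 0.0728; 0.00282 to 0.0728 across all alternatives). That of sesn2 ended without foxl2l-/- replicate 2 (edgeR adjusted p = 0.0766) and in limma on log2(TPM + 1) (adjusted p = 0.0867; 0.000632 to 0.0913 across all alternatives). That of tigarb ended without foxl2l-/- replicate 1 or 2 or foxl2l+/+ replicate 1 or 2 (edgeR adjusted p = 0.0777, 0.0878, 0.0507 and 0.102; 0.00357 to 0.102 across all alternatives). Gadd45gb.1 had few counts, at 134, 53 and 50 in foxl2l-/- and 257, 340 and 240 in foxl2l+/+ replicates 1 to 3. This paralogue of gadd45aa fell by 2.19 ± 0.45, and its log2 fold change was -2.82 to -1.71 across all alternatives. The other members of that family, chosen after their values were seen, were gadd45bb (0.90 ± 0.32, edgeR adjusted p = 0.0489), which rose, and gadd45ab (-0.50), gadd45ba (0.16) and gadd45ga (-0.12), which did not pass. The call of gadd45bb held in 8 of 16 alternatives (adjusted p = 0.0200 to 0.223 in edgeR, DESeq2 and limma). It ended when any library other than foxl2l-/- replicate 1 was left out, and its log2 fold change was 0.47 without foxl2l-/- replicate 3. The counts changed when single libraries were left out. Such fits called 2708 to 3302 of all tested genes higher and 2600 to 3753 lower, against 3710 and 3733 with every library. There were 4 higher and 1 lower without foxl2l-/- replicate 2, 5 and 3 without foxl2l-/- replicate 3, 3 and 2 without foxl2l+/+ replicate 1, 3 and 2 without foxl2l+/+ replicate 2, and 4 and 3 without foxl2l+/+ replicate 3. With library totals 10 were higher and 2 lower, and on the TPM scale 12 and 1. All tested genes shifted the same way, to 4882 higher and 2723 lower with library totals and to 5326 and 2652 on log2(TPM + 1).

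Of 20 BCL2-family genes tested, 17 did not pass, 2 fell and 1 rose, so 15% were called, against 31.6% of all tested genes. Their median was -0.20 on the log2 scale (-0.23 to -0.05 when single libraries were left out, nearest 0 without foxl2l+/+ replicate 3), and it turned to 0.07 in limma on log2(TPM + 1). Bcl2l16 fell by 1.54 ± 0.29 (SE) and bcl2l13 by 1.07 ± 0.22, while mcl1a, which encodes a survival protein that Noxa binds, rose by 0.68 ± 0.21, with 95.01 ± 22.7 CPM in foxl2l-/- cells against 59.5 ± 6.84 CPM in foxl2l+/+ cells (SD, n = 3 each; edgeR quasi-likelihood adjusted p = 0.0257). In edgeR mcl1a lost its call when foxl2l-/- replicate 1 (adjusted p = 0.113), foxl2l+/+ replicate 1 (0.0808) or foxl2l+/+ replicate 3 (0.0876) was dropped, in a range of 0.00257 to 0.113 across all alternatives. Its paralogue mcl1b, chosen after its values were seen, had a log2 fold change in the other direction, -0.57 ± 0.21 (SE). Mcl1b had 41.1 ± 5.14 CPM in foxl2l-/- against 60.8 ± 12.0 CPM in foxl2l+/+ cells (SD, n = 3 each). It did not pass (edgeR quasi-likelihood adjusted p = 0.0573). In limma on log2(TPM + 1) 2 members were higher and 2 lower, against 5326 and 2652 of all tested genes.

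Of 25 apoptosome, caspase and caspase inhibitor genes tested, 9 fell, 4 rose and 12 did not pass, so 52% were called, against 31.6% of all tested genes (15.7% higher and 15.8% lower). Again the share cannot be read as particular to these genes, which were listed with earlier results known. Their median was -0.10 on the log2 scale, and it turned to 0.11 with library totals and to 0.01 without foxl2l+/+ replicate 1, while it was -0.25 without foxl2l-/- replicate 2. Tnfrsf1a, a tumour necrosis factor receptor gene, rose by 1.92 ± 0.42 (SE), with 8.12 ± 1.46 CPM in foxl2l-/- cells against 2.13 ± 0.9 CPM in foxl2l+/+ cells (SD, n = 3 each; edgeR quasi-likelihood adjusted p = 0.00429). The survivin gene birc5b fell by 3.47 ± 0.23, the mitochondrial flavoprotein gene aifm1 by 1.09 ± 0.21, diablob, which encodes an antagonist of caspase inhibitors, by 1.01 ± 0.23 and casp8, the initiator of the death receptor pathway, by 0.90 ± 0.21. The call of casp8 ended in limma on log2(TPM + 1) (adjusted p = 0.0557; 0.000461 to 0.0568 across all alternatives). Other members, chosen after their values were seen, were the executioner caspases casp3a (0.65) and casp3b (1.0), which rose, and apaf1 (-0.88) and cycsb (-0.87), the scaffold and the cytochrome c of the apoptosome that activates caspase 9, which fell. The call of casp3a held in 13 of 16 alternatives, that of casp3b in 12, that of apaf1 in 14 and that of cycsb in 16. Those of casp3a and casp3b ended only when single libraries were left out (edgeR adjusted p up to 0.0836 and 0.0977), which were foxl2l-/- replicate 1 or 2 for both, foxl2l+/+ replicate 3 for casp3a and foxl2l+/+ replicate 1 or 2 for casp3b. The call of apaf1 ended only in limma on log2(TPM + 1) or log2(TPM + 0.1). The balance turned on the TPM scale, where 6 were higher and 4 lower, and with library totals 5 were higher and 6 lower. All tested genes shifted the same way, to 5326 higher and 2652 lower on log2(TPM + 1) and to 4882 and 2723 with library totals. Dropping foxl2l-/- replicate 1 left 2 higher and 8 lower, and dropping foxl2l-/- replicate 2 left 2 and 6. The same fits called 3037 and 3248, and 2797 and 2600, of all tested genes.

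**Figure D4:**
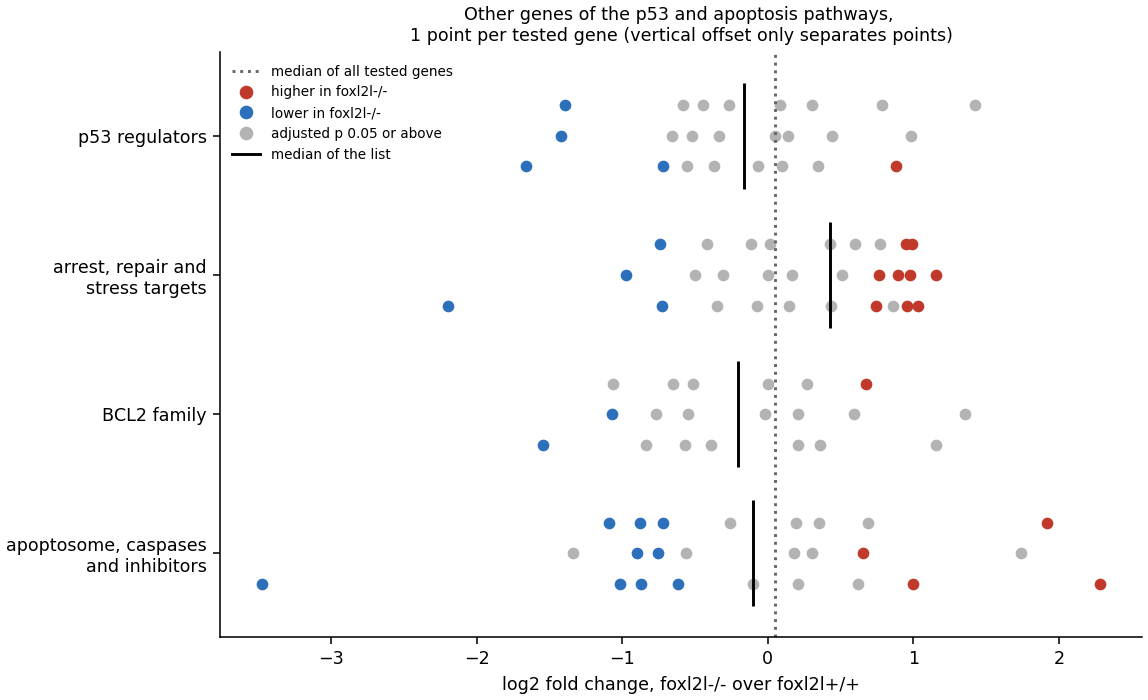
Log2 fold change of foxl2l-/- over foxl2l+/+ for every tested gene of the 4 pathway lists, with the median of each list as a black bar and the median of all tested genes as a dotted line. Medians were -0.16, 0.43, -0.20 and -0.10 from the top list to the bottom list, and called genes lie on both sides in each list.

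Markers of other cell types and of dissociation stress were measured in the same libraries. The share called is given for each list, against 31.6% of all tested genes. These lists too were chosen with earlier results of these data known. Somatic gonad markers summed to 78.6 to 102 CPM in foxl2l-/- and 33.8 to 48.6 CPM in foxl2l+/+ libraries. Among the 10 tested, 2 were higher (cyp17a1 and col1a1a) and none lower (20% called), while fshr, wt1a and inha were too low to test. Blood and immune markers summed to 36.7 to 65.0 CPM in foxl2l-/- and 68.8 to 120.0 CPM in foxl2l+/+ libraries, with 1 of 8 tested higher and 3 lower (50% called). Muscle markers summed to 114 to 137 CPM in foxl2l-/- and 123 to 135 CPM in foxl2l+/+ libraries, with 2 of 8 higher and 1 lower (37.5% called). Of 16 immediate early and heat shock genes, which respond to tissue dissociation and sorting, 6 rose and 3 fell (56.25% called). Their sum was 1898 to 2543 CPM in foxl2l-/- and 2908 to 3217 CPM in foxl2l+/+ libraries, and most of it was hspa8. No marker of these lists was at 0 in every library, while fshr and mpeg1.1 were each at 0 in 3 libraries and inha in 1. The part of these cells and of this stress in the values of the 9 genes was not tested.

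**Figure D5:**
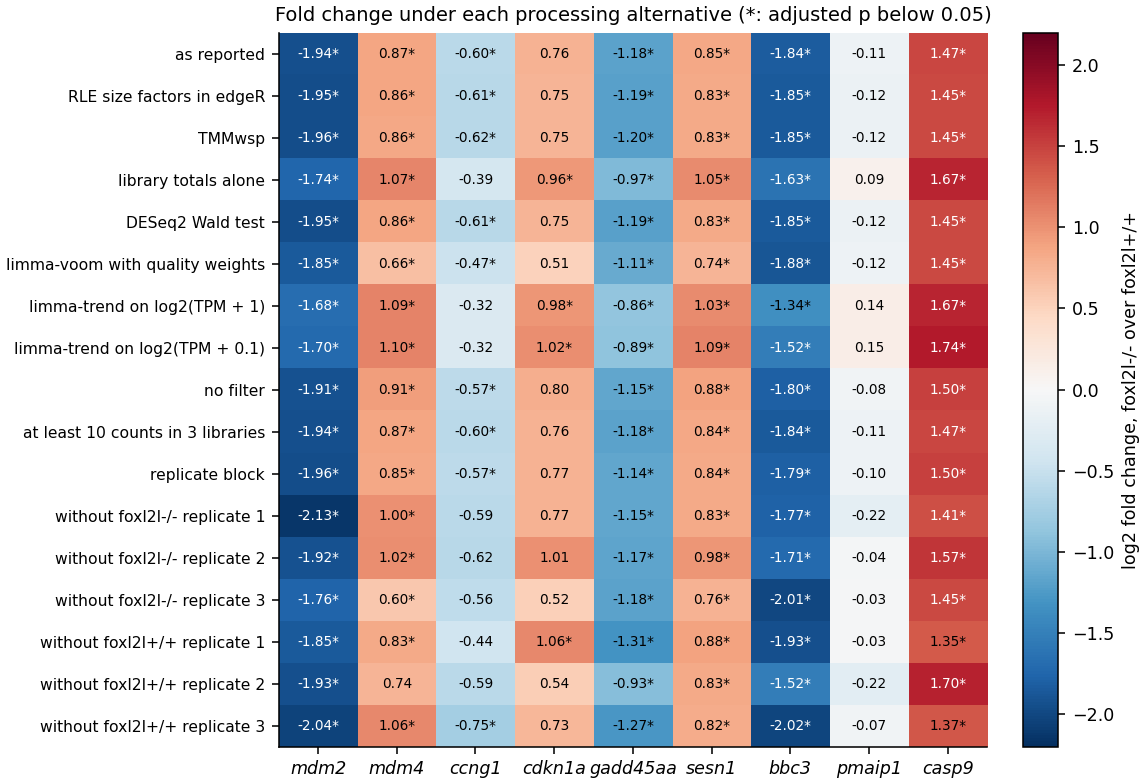
Log2 fold change of foxl2l-/- over foxl2l+/+ for the 9 genes (columns) under the reported fit and 16 alternatives (rows), with an asterisk where the adjusted p was below 0.05. Mdm2, bbc3, gadd45aa, sesn1 and casp9 carry an asterisk in every row, whereas mdm4, ccng1 and cdkn1a do in some.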

How the data were processed

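Sorted cells were amplified with SMART-Seq HT and made into libraries with Nextera XT per the labels' protocols, without strand information. The authors deposited raw read counts per gene and library and, per the file headers, TPM values, which scale counts by gene length and depth. The submitters' processing notes name bcl2fastq and genome build GRCz11. How reads were aligned and counted, with which annotation release, and how multiply matching reads were treated is not given in the sources used. Another 12 columns of RPKM and CPM values were not used, nor was the authors' own comparison.

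Counts were analysed in R 4.3.3 with edgeR 4.0.16. The 23576 genes kept by filterByExpr were scaled with TMM factors. The glmQLFit and glmQLFTest functions then tested genotype, and p-values were adjusted by Benjamini-Hochberg over all of them at 0.05. Standard errors and 95% intervals come from the F statistic of that fit. Depth was 25176401 to 39189535 counts per library. Reads were amplified and carry no molecular identifiers, so they are not independent molecules. Libraries of the same genotype differed pairwise by more than read sampling alone gives (chi-square per degree of freedom 33.2 to 121), so none was treated as a second deposit of another. Amplified technical repeats could differ as much.

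The 9 genes and all lists were chosen with earlier results of these data known. Lists held 109 other pathway genes, of which 100 matched by name and 98 were tested, and are described by counts and medians with no set test. Named genes are the 9, up to 6 called genes with the smallest p in each list and the 3 most like mdm2. Others were chosen after their values were seen, which is said where they appear. As alternatives, normalization was changed to RLE, TMMwsp or plain library totals, and the test to DESeq2 1.42.0 or limma 3.58.1 (voom with quality weights, and trend on log2(TPM + 1) or log2(TPM + 0.1)). The low-count filter was dropped or set to 10 counts in 3 libraries, the replicate number was added as a block, and libraries were left out singly. Some single-gene results are not reported.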

Additional observations from a re-analysis of the deposited data

How the results depend on the processing

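Of 512 fold changes (32 genes taken by the naming rule under 16 alternatives), 479 kept their side of the threshold, 29 lost a call, 4 gained one and 0 called values changed sign in the edgeR, DESeq2 and limma fits run. Genes outside the 9 were taken because they had small p-values in the same libraries or were like mdm2. How often their calls held is therefore partly set by that choice. Pmaip1, which was called in none of the fits, turned sign with library totals (0.09), on log2(TPM + 1) (0.14) and on log2(TPM + 0.1) (0.15). Mdm2 ranged from -2.13 to -1.68 on the log2 scale, bbc3 from -2.02 to -1.34, gadd45aa from -1.31 to -0.86, casp9 from 1.35 to 1.74 and sesn1 from 0.74 to 1.09, with an adjusted p of at most 0.0280 for any of them. Besides ccng1, cdkn1a and mdm4, the genes whose calls changed were sesn2, sesn3, tigarb, mcl1a, aurka, casp8 and kdsr. Leaving out each library in turn gave 2 to 4 of the 9 genes higher and 3 to 4 lower. Over all genes it gave 2708 to 3302 higher and 2600 to 3753 lower.

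Whether replicate numbers pair the libraries is not known. The deviations of same-numbered libraries from their genotype means correlated at -0.04, 0.05 and 0.04, and those of differently numbered libraries at -0.09 to 0.06. With 3 libraries per genotype, each centred on its own mean, these values cannot decide it. With the replicate block 3529 genes were higher and 3670 lower, and 3 and 4 of the 9 genes. The lowest count of any of the 9 genes in any library was 266, for cdkn1a. Amplified reads are not independent molecules, so this count sets no bound on the counting error.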
